A study of Mus musculus with 58 samples.

Results

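The genes described here are 9 interferon-stimulated genes of the mouse, namely Ifit1, Ifit3, Isg15, Irf7, Oasl2, Usp18, Rsad2, Xaf1 and Ifi27. They were taken by gene symbol, with no threshold on a measured value, from the 20018 genes named on the array, and 11 of the 55681 probes belonged to them. Isg15 and Xaf1 had 2 probes each, and a gene with several probes is given by the probe with the brightest tissue signal. All 9 genes were tested in lung, liver and forestomach, by 11, 10 and 10 probes. The questions were at what level each gene stood in each tissue, whether a dose of benz(a)anthracene (BaA) moved it, and whether a mouse that was high in one tissue was high in the others.

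Interferons are secreted proteins that cells release on sensing viral or damaged nucleic acid. They bind receptors that switch on a transcription factor complex that includes Stat2 and Irf9 and binds the interferon-stimulated response element (ISRE) in the promoters of its target genes. Even without infection, a low tonic interferon signal keeps these genes on at a level that differs between tissues and animals. Irf7 is the transcription factor of the group and amplifies interferon production. Ifit1, Ifit3, Oasl2 and Rsad2 (viperin) encode antiviral effectors, Isg15 encodes a ubiquitin-like protein, and Usp18 is the protease that removes it and also dampens the receptor. Xaf1 is an inducible antagonist of inhibitors of apoptosis, and Ifi27 is a small membrane protein induced by interferon.

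The mice were male Muta™Mouse, about 10 weeks old, a transgenic strain whose lacZ reporter serves to score mutations. BaA, a polycyclic aromatic hydrocarbon and ligand of the aryl hydrocarbon receptor (AhR), was given in olive oil by oral gavage every day for 28 days, and the tissues were collected when 72 h had passed since the final gavage. Group D0 (mice 1 to 5) received olive oil alone, and groups D1 (mice 6 to 10), D2 (mice 11 to 15) and D3 (mice 16 to 20) received daily doses of 20, 40 and 80 mg per kg body weight. Each array compared the RNA of 1 tissue of 1 mouse, labelled with Cy5, with a universal reference RNA from 11 mouse cell lines, labelled with Cy3. Arrays were available for 20 lungs (5 per group), 19 livers (4 at D3, without mouse 20) and 19 forestomachs (4 at D0, without mouse 5). Tissues with the same mouse number came from the same animal, each sample was a piece of whole tissue, and no dye was swapped. Values are log2 ratios of tissue over reference RNA, so that a difference of 1 is a 2-fold difference.

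The median share of probes well above background was 53.1% in lung, 37.9% in liver and 55.2% in forestomach, and no member probe was saturated. Surfactant genes marked the lung arrays and Alb the liver arrays. Of the forestomach keratins, Krt13 was at 5.31 in the lung of D0 mouse 5 and at 1.91 in that of D3 mouse 16, against −2.17 to −1.54 in the other lungs. Forestomach arrays also differed in Gkn1, a gene of the glandular stomach (−0.0026 to 5.66), and in Alb (0.096 to 4.07). The 9 genes were well above background on all lung arrays. Ifit1 was so on 15 of 19 liver and 15 of 19 forestomach arrays, Irf7 on 16 and Rsad2 on 11 of 19 forestomach arrays, and the other members on all. The arrays lay on 3 slides per tissue that each held all dose groups, so that a difference in level between tissues and one between slides cannot be told apart.

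The promoters were searched for the ISRE, to which the interferon-activated complex is known to bind. Of the 9 genes, 7 had a promoter in the RefSeq table (build GRCm38.p6, 250 bases before to 50 bases after the start), and Usp18 and Ifi27 are named only. The core letters of the ISRE, searched as GAAA, any 2 bases and GAAA again on either strand, were found in 4 of these 7 promoters (57.1%), in 22 of 58 promoters of other type I interferon targets (37.9%) and in 1131 of all 32851 promoters (3.44%). Ifit1 held 2 matches, Ifit3 held 2, Isg15 held 3 that overlap each other, and Rsad2 held 1. The interferon gamma-activated core TTCNNNGAA was in none of the 7, in 12.1% of the other targets and in 8.3% of all promoters. The core of the AhR response element, GCGTG, was in 2 of the 7 (28.6%, Oasl2 and Rsad2) and in 32.4% of all promoters. The 4 promoters with the ISRE core, and that of Xaf1, the member called most often below, are printed 5′ to 3′ on the strand of the gene, with the ISRE core in capitals.
Ifit1, chr19:34640639-34640938, plus strand: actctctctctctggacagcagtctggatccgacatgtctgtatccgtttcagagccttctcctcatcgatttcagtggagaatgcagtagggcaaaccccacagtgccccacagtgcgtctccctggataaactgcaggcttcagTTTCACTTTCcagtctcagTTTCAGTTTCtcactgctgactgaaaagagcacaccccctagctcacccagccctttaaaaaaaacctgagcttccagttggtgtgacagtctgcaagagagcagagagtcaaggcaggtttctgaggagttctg
Ifit3, chr19:34583279-34583578, plus strand: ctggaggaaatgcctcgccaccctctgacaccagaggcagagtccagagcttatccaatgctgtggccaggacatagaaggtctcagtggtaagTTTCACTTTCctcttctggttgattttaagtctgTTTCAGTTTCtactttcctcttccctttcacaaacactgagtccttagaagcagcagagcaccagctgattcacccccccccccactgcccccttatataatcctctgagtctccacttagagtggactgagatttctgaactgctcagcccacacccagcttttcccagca
Isg15, chr4:156200769-156201068, minus strand: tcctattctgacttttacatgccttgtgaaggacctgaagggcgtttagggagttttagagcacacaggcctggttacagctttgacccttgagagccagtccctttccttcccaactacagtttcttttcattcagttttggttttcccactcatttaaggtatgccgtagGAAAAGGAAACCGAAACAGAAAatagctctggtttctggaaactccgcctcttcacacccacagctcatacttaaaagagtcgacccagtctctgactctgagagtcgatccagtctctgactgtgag
Rsad2, chr12:26456403-26456702, minus strand: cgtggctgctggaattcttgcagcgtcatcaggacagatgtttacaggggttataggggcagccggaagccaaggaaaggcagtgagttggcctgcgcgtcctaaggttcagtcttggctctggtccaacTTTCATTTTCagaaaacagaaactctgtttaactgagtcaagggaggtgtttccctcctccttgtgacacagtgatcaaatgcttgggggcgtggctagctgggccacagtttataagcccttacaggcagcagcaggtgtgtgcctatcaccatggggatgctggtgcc
Xaf1, chr11:72301379-72301678, plus strand: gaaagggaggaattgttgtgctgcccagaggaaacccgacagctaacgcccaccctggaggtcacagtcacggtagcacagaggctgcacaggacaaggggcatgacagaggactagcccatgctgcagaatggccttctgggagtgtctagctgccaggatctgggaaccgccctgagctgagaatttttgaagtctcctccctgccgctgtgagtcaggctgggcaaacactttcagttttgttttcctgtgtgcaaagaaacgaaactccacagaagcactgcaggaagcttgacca
The first bases of the Ifit1 matches stood at −104 and −85 from the start, those of Ifit3 at −156 and −122, those of Isg15 at −78, −72 and −66, and that of Rsad2 at −120. The matches in Isg15 ran on the strand of the gene and those in the other 3 genes on the opposite strand. No match in the window of Xaf1, Irf7 and Oasl2 says only that these letters are not there.

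Without BaA, the members stood highest in lung for 7 genes and in liver for Irf7 and Ifi27, and lowest in forestomach for 8. Ifit3 was at 2.07, 2.1, 2.47, 2.79 and 2.49 in the lungs of D0 mice 1 to 5, at 0.43, 0.97, 1.03, 1.19 and 0.97 in their livers, and at −0.57, −0.27, −0.09 and 0.49 in the forestomachs of mice 1 to 4. The lungs and livers did not overlap, and only mouse 4 in forestomach exceeded any liver. Between lung and liver, 6 of the 9 genes passed both thresholds (adjusted p of at most 0.05 and at least 1.5-fold), a call that 46.6% of all tested probes shared. Of these, 5 were higher in lung, by 1.23 (SE 0.28) for Ifit1, 1.46 (0.20) for Ifit3, 1.98 (0.34) for Oasl2, 0.69 (0.30) for Usp18 and 1.5 (0.21) for Xaf1. The Usp18 call was lost with the submitters' log2 ratios (0.60, adjusted p = 0.0906), with no filter on dim probes (adjusted p = 0.0555), and without the lung of D0 mouse 3 or 4 or the liver of D0 mouse 1, 2 or 5 (down to 0.49, adjusted p = 0.15). Irf7 was lower in lung by 1.11 on the log2 scale (SE 0.30). Its D0 values were −0.77, −1.83, −0.68, 0.06 and −0.50 in lung and −0.37, 0.03, 0.30, 1.2 and 0.65 in liver, and the ranges overlapped.

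Between lung and forestomach all 9 genes were called, against 30.8% of all probes, from 0.61 (SE 0.19) for Ifi27 to 2.67 (SE 0.32) for Usp18. Centring each array on its median in place of loess turned Ifi27 to −0.39. Usp18 was at −0.93, −0.83, −0.48, 0.29 and −0.56 in lung and at −3.67, −2.46, −3.43 and −3.13 in forestomach, with no overlap. Between liver and forestomach 8 genes were called, against 39.1% of all probes, all higher in liver, from 0.97 for Ifit1 to 2.28 for Irf7. By these calls the order was lung, liver, forestomach for Ifit1, Ifit3, Usp18 and Xaf1, and liver, lung, forestomach for Irf7. With median centring 5 genes were called between liver and forestomach, and parts of the order were lost. Liver minus forestomach was then 0.13 for Ifit1 (adjusted p = 0.642), 0.07 for Ifit3 (adjusted p = 0.862) and 0.04 for Xaf1 (adjusted p = 0.927), and lung minus forestomach 0.58 for Irf7 (adjusted p = 0.109). Without the forestomach of D0 mouse 1, liver minus forestomach for Ifit1 had an adjusted p of 0.0517. For Isg15 (lung minus liver 0.68, SE 0.41, adjusted p = 0.132) and Rsad2 (0.39, SE 0.37, adjusted p = 0.347), lung and liver did not differ beyond their spread. For Oasl2 this held for liver and forestomach (−0.30, SE 0.36, adjusted p = 0.488), but with median centring it was called lower in liver (−1.19, adjusted p = 0.0082). Ifi27, at 1.68 in liver and 1.11 in lung, differed between them with an adjusted p of 0.0029 but by 1.49-fold, just under the threshold. It was called with the submitters' log2 ratios (lung minus liver −0.77), with processed signals (−1.08), and without the lung of D0 mouse 3 or 4 or the liver of D0 mouse 1 or 5 (−0.72 to −0.60).

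**Figure D1:**
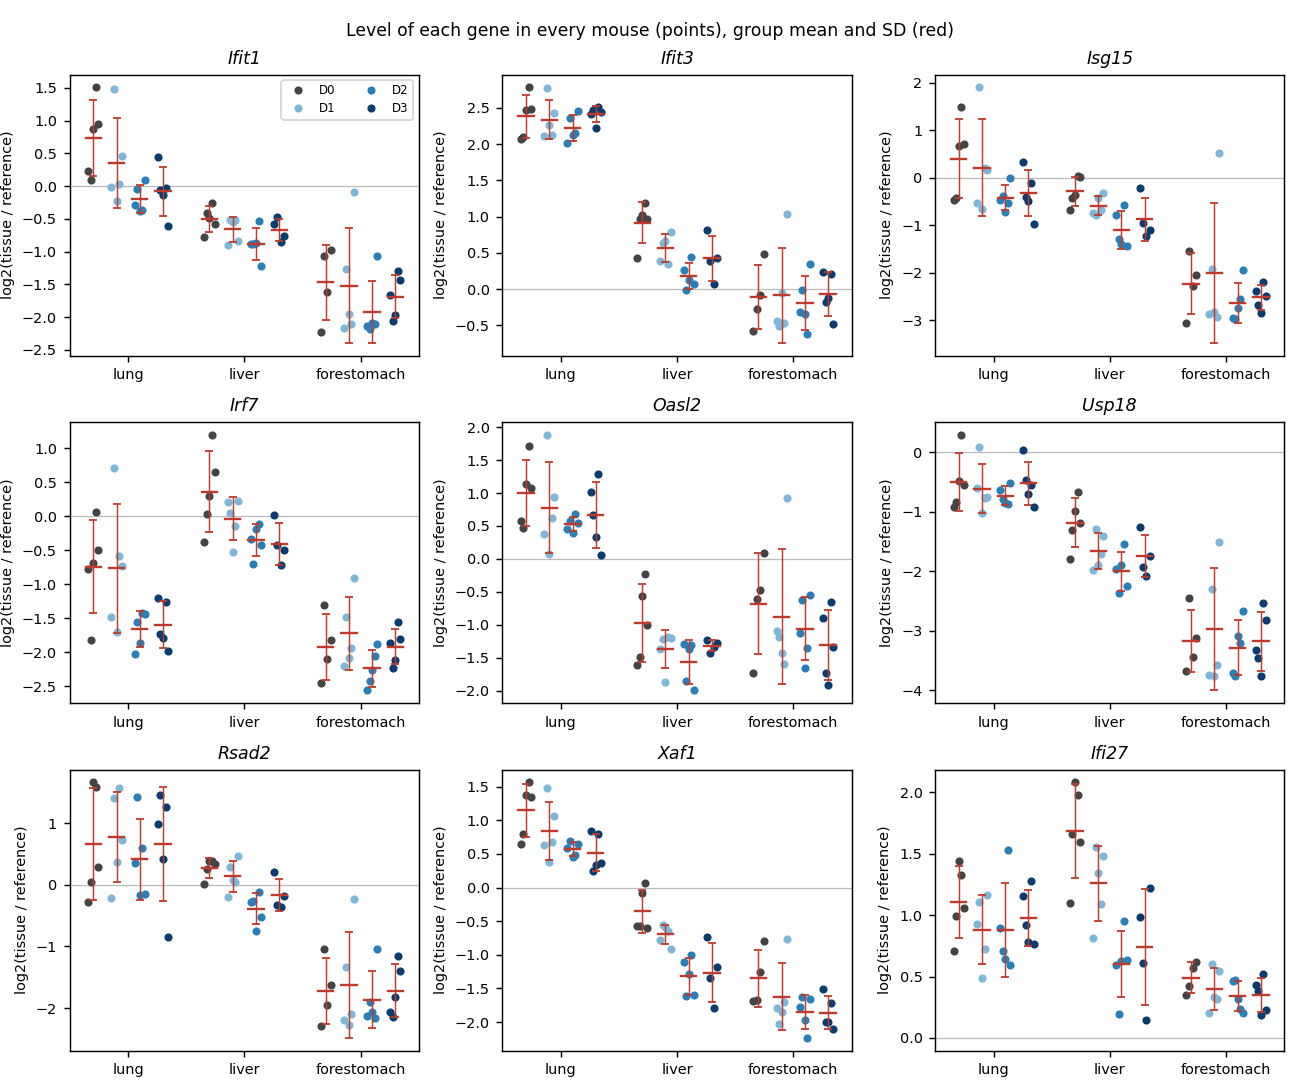
Level of each of the 9 genes in every mouse, as the log2 ratio of tissue over reference RNA, by tissue and dose group (points; red lines are the group mean and SD). In liver the D2 mice of Rsad2, Xaf1 and Ifi27 all lie below the D0 mice. In forestomach D1 mouse 10 is the highest mouse for every gene but Ifi27, and for Xaf1 it lies close to D0 mouse 4.

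In liver all 9 genes stood lower at D2 than at D0 (53.1% of all tested probes did), by 0.38 to 1.08 on the log2 scale. Of the 9 genes, 4 passed both thresholds. These were Ifi27, Xaf1, Ifit3 and Rsad2, and 0.574% of all 22815 tested probes were called (0.548% as lower). All 9 genes had an unadjusted p under 0.05 there, as did 12.8% of all probes. Within the 3 slides 9, 8 and 9 genes stood lower at D2 and 9, 7 and 8 at D3. Their median change was −0.74, against −0.01 over all tested probes. At D1 the changes ran from −0.47 to −0.14 with none called, against 0.241% of all probes, and 2 genes, Ifit3 and Usp18, had an unadjusted p under 0.05, as did 7.53% of all probes. At D3 they ran from −0.94 to −0.17, and 2 genes, Xaf1 and Ifi27, were called, against 0.434% of all probes (0.359% as lower). In pieces of whole tissue, fewer cells that express a gene and less RNA per cell cannot be told apart.

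Ifi27 changed most in liver. It was at 1.1, 1.66, 2.08, 1.98 and 1.59 in the D0 mice, at 0.81, 1.56, 1.35, 1.09 and 1.48 in the D1 mice, at 0.59, 0.19, 0.62, 0.95 and 0.64 in the D2 mice and at 0.99, 0.61, 0.15 and 1.23 in the D3 mice. Every D2 mouse was below every D0 mouse, and at D3 only mouse 19 was above the lowest D0 mouse. The mean fell from 1.68 ± 0.39 (SD, n = 5) to 0.60 ± 0.27 (n = 5) at D2, by 1.08 on the log2 scale (SE 0.21, adjusted p = 0.0136), and to 0.74 ± 0.47 (n = 4) at D3, by 0.94 (SE 0.22, adjusted p = 0.0413). Within the 3 slides the D2 change was −1.24, −0.71 and −0.99, and the D3 change −1.34, −0.49 and −0.64. The D2 call held in all 29 alternative settings and the D3 call in 15 of 29. The D3 call was lost without D0 mouse 2, 3 or 4, without D3 mouse 17 or 18, and without D1 mouse 9 or D2 mouse 11 or 13 (adjusted p up to 0.155).

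Xaf1 followed the same course. The liver values were −0.58, −0.57, −0.08, 0.07 and −0.61 at D0, −0.78, −0.56, −0.59, −0.64 and −0.91 at D1, −1.1, −1.61, −1.29, −1.0 and −1.6 at D2, and −0.73, −1.35, −1.79 and −1.18 at D3. All D2 and all D3 mice were below all D0 mice. The mean of −0.35 ± 0.32 (SD, n = 5) at D0 fell by 0.97 (SE 0.18, adjusted p = 0.0104) at D2 and by 0.91 (SE 0.19, adjusted p = 0.0253) at D3. The D2 changes within the 3 slides were −1.14, −0.78 and −1.01, whereas those at D3 were −1.48, −0.77 and −0.14. The D3 call was lost when mouse 3 or 4 of D0, or 17, 18 or 19 of D3, was left out (adjusted p of 0.0524 to 0.0941). The second Xaf1 probe was not well above background on any liver array.

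Ifit3 and Rsad2, 2 of the antiviral effectors, were called at D2 alone. Ifit3 was at 0.43, 0.97, 1.03, 1.19 and 0.97 at D0 and at 0.27, −0.01, 0.13, 0.44 and 0.06 at D2, where only mouse 14 reached the lowest D0 mouse. It fell by 0.74 (SE 0.15, adjusted p = 0.0156). Without D0 mouse 4 the fall was 0.67 (adjusted p = 0.0532). Rsad2 was at 0.01, 0.25, 0.38, 0.38 and 0.33 at D0 and at −0.28, −0.26, −0.76, −0.12 and −0.52 at D2, with no overlap. It fell by 0.66 (SE 0.14, adjusted p = 0.0236), and leaving out D0 mouse 2, 3 or 4 or D2 mouse 13 or 15 raised its adjusted p to between 0.0577 and 0.0738. At D3 the changes were −0.50 (SE 0.15, adjusted p = 0.126) for Ifit3 and −0.44 (SE 0.15, adjusted p = 0.161) for Rsad2.

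The remaining 5 members were not called in liver. For the ISG15 pair, the D2 change was −0.82 (SE 0.20, adjusted p = 0.0514) for Isg15 and −0.81 (SE 0.20, adjusted p = 0.0568) for Usp18. Isg15 was at −0.67, −0.44, −0.36, 0.03 and 0.01 at D0 and at −0.78, −1.30, −1.40, −0.58 and −1.45 at D2, where mouse 14 alone overlapped the D0 mice. Its second probe changed by −0.53 (SE 0.15, adjusted p = 0.111). Usp18 ran from −1.79 to −0.68 at D0 and from −2.37 to −1.54 at D2, so that 1 D2 mouse stood above the lowest D0 mouse. The transcription factor Irf7 was at −0.37, 0.03, 0.30, 1.2 and 0.65 at D0 and at −0.34, −0.71, −0.19, −0.12 and −0.42 at D2. Its D2 change of −0.72 (SE 0.23) had an adjusted p of 0.152, with D0 mouse 4 the highest and D0 mouse 1 among the D2 mice. Oasl2 changed by −0.59 (SE 0.22, adjusted p = 0.256) and Ifit1 by −0.38 (SE 0.12, adjusted p = 0.174) at D2.

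Of the 9 genes, 3 (Rsad2, Xaf1 and Ifi27) had all D2 mice below all D0 mice in liver, as did 1.84% of all probes, and 1 (Xaf1) had all D3 mice below, as did 2.89% of all probes. Single mice moved the liver counts in both directions. Without D0 mouse 4, 2 genes, Xaf1 and Ifi27, were called at D2, none at D3 and none by slope. Without D3 mouse 16, 6 were called at D2 (Isg15 with an adjusted p of 0.0225 and Usp18 with 0.0465 were added), 4 at D3 and 3 by slope. Without D3 mouse 17 or 18 or D0 mouse 3, none were called at D3. The D2 calls of Xaf1 and Ifi27 held with any 1 array left out. With median centring 8 genes were called lower at D2, and with the Cy5 signal alone 1 was.

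Markers of immune cells were set beside the liver result. Of the 4 macrophage markers with a probe (Adgre1, Csf1r, Marco and Clec4f), all 4 were tested. None of them was called between D0 and D2 (−0.09 to 0.13, median −0.02). The same held between D0 and D3 (−0.54 to 0.03, median −0.11), where 3 of the 4 markers stood lower. Their mean level ran from 1.59 to 2.62 in the D0 livers, from 1.29 to 3.22 in the D2 livers and from 1.57 to 2.07 in the D3 livers. Of the 5 markers of all leukocytes none was called at D2 (median change 0.06) or D3 (−0.18), and their mean level ran from −1.81 to −1.29 at D0 and from −1.77 to −1.26 at D2. Of the NK cell markers, Ncr1, Klrb1c and Klre1 were not well above background on any liver array.

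**Figure D2:**
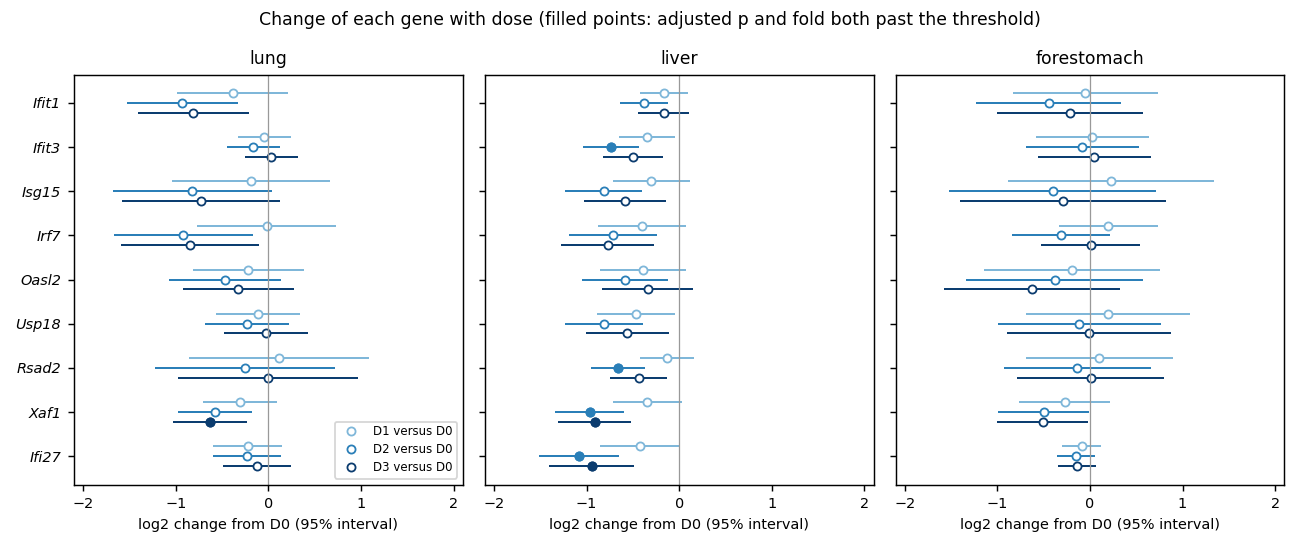
Change of each gene from the vehicle group D0 to D1, D2 and D3 (log2 scale, points with 95% intervals from limma), by tissue. Filled points passed both thresholds: 1 in lung, 6 in liver and none in forestomach.

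In lung 1 gene was called, Xaf1 at D3. The members stood lower than D0 in 8 of 9 cases at D1, in 9 of 9 at D2 and in 8 of 9 at D3, with median changes of −0.19, −0.47 and −0.33. Of all tested probes, 49.7%, 49.5% and 49.4% stood lower at D1, D2 and D3. Within slide 1 (2 D0 lungs against 2 dosed lungs) 4 of 9 stood higher at D2 and 7 of 9 at D3, among them Rsad2 by 1.34, Usp18 by 0.67 and Isg15 by 0.41. On slides 2 and 3 all 9 stood lower at D2, and 7 and 9 at D3. None was called at D1, where none of all tested probes was (0%). None was called at D2, where 0.556% of all probes were, and 1 at D3, where 1.88% were (0.566% as lower). At D2 and at D3 3 genes each had an unadjusted p under 0.05, as did 16% and 23.9% of all probes. For no member were all D2 or all D3 lungs below all D0 lungs, as they were for 1.2% and 2.63% of all probes.

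Xaf1 was at 0.65, 0.80, 1.38, 1.56 and 1.34 in the D0 lungs, at 0.64, 1.47, 0.38, 0.68 and 1.06 at D1, at 0.59, 0.69, 0.46, 0.48 and 0.64 at D2 and at 0.84, 0.25, 0.34, 0.80 and 0.37 at D3. D0 mice 3, 4 and 5 stood above every D2 and D3 mouse, and D0 mice 1 and 2 among them. The mean of 1.15 ± 0.40 (SD, n = 5) fell to 0.52 ± 0.28 (n = 5) at D3, by 0.63 (SE 0.19, adjusted p = 0.0452). The adjusted p passed 0.05 when any of 13 of the 20 arrays was left out (D0 mice 3, 4 and 5, D1 mice 6 and 9, all D2 mice, and D3 mice 17, 18 and 20), up to 0.118. Within the 3 slides the D3 change was −0.18, −0.58 and −1.1. Without the lungs of mice 5 and 16, which held squamous keratins, it was −0.66 (adjusted p = 0.0714), and with each array centred on its median −0.30 (adjusted p = 0.954). The second Xaf1 probe, well above background on 14 of 20 lung arrays, changed by −0.10 (SE 0.12, adjusted p = 0.663).

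The changes of Ifit1 and Irf7 in lung were of a similar size but not called. Ifit1 was at 0.23, 0.09, 0.88, 1.51 and 0.95 at D0 and at −0.28, −0.05, −0.38, −0.37 and 0.09 at D2. Only D2 mouse 15 reached the lowest D0 mouse, and the change was −0.93 (SE 0.29, adjusted p = 0.0982). Without D1 mouse 7 it was called (adjusted p = 0.0358). At D3 Ifit1 changed by −0.81 (SE 0.29, adjusted p = 0.0837), and without D1 mouse 7 this was called too (adjusted p = 0.0291). Irf7 was at −0.77, −1.83, −0.68, 0.06 and −0.50 at D0 and at −2.02, −1.56, −1.86, −1.42 and −1.44 at D2, where D0 mouse 2 lay within the D2 range. Its change was −0.92 (SE 0.36, adjusted p = 0.2) at D2 and −0.85 (SE 0.36, adjusted p = 0.15) at D3.

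Isg15 varied too much between lungs for its D2 change of −0.82 to pass (SE 0.41, adjusted p = 0.337). The D0 lungs were at −0.46, −0.43, 0.68, 1.49 and 0.71, the D1 lungs at −0.54, 1.90, −0.67, 0.20 and 0.16, and the D2 lungs at −0.46, −0.39, −0.72, −0.53 and −0.01. The second Isg15 probe changed by −0.53 at D2 (SE 0.32, adjusted p = 0.453), which is 1.44-fold and under the fold threshold. The other 6 members changed by −0.58 to −0.16 at D2 and, without Xaf1, by −0.33 to 0.03 at D3. Ifit3, which was called in liver, changed by −0.16 (SE 0.14) at D2 and 0.03 (SE 0.14) at D3 in lung. With median centring, the median change over all tested lung probes was 0.39 at D2 and 0.15 at D3. Ifit3, Oasl2, Usp18, Rsad2, Xaf1 and Ifi27 then turned to positive changes at D2.

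In forestomach no member was called at any dose, against 0%, 0.0124% and 0.0247% of all 32342 tested probes at D1, D2 and D3. With unadjusted p-values under 0.05 from limma, there was none at D1 and 1 each at D2 and D3, Xaf1 both times, against 4.42%, 3.29% and 5.11% of all probes. Xaf1 was at −1.68, −1.68, −1.26 and −0.79 at D0, at −1.77, −1.62, −1.97, −2.24 and −1.66 at D2 and at −1.51, −1.99, −1.99, −1.71 and −2.1 at D3. The changes of −0.50 and −0.51 (SE 0.23 each) had adjusted p-values of 1 and 0.959, and the ranges overlapped. The median change of the 9 genes was 0.02 at D1, −0.31 at D2 and −0.14 at D3. Ifi27 varied little, from 0.19 to 0.62 over the 19 forestomachs. Isg15 varied widely, from −3.07 to 0.52, and its D1 SD of 1.47 came with mouse 10 alone at 0.52 and the other 4 D1 mice between −2.93 and −1.93. The 5 glandular stomach markers all stood higher in the dosed forestomachs than at D0, and none was called. Their median change was 2.41 at D1, 1.16 at D2 and 1.63 at D3. The part of glandular tissue in the forestomach changes of the 9 genes was not tested.

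Over the 4 doses at once, the slope per 80 mg/kg-bw/day was called (adjusted p of at most 0.05) for 1 member in lung, 1 in liver and none in forestomach. It was Xaf1 both times, at −0.61 (SE 0.19, adjusted p = 0.0372) in lung and −0.97 (SE 0.22, adjusted p = 0.0379) in liver. Of all probes, 11.6% had a slope in lung, 0.675% in liver and 0.0247% in forestomach. Ifi27 in liver had a slope of −1.0 (SE 0.25, adjusted p = 0.0641). The lung call was lost without any of 6 arrays (D0 mice 3, 4 and 5 and D3 mice 17, 18 and 20) and the liver call without any of 10 (D0 mice 1, 3, 4 and 5, D1 mice 6, 7 and 9, and D3 mice 17, 18 and 19), with adjusted p-values up to 0.0909 and 0.136.

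Whether the D3 change differed between tissues was tested directly, and no member was called. Of all probes, 2.06% were called between lung and liver, 0.257% between lung and forestomach and 0.0452% between liver and forestomach. Ifi27 came nearest. Its D3 change was −0.12 in lung and −0.94 in liver, a difference of 0.82 (95% interval 0.31 to 1.33, adjusted p = 0.0694), which passed the threshold in the submitters' own normalised table (0.94, adjusted p = 0.0434) and with the slide as a random block (0.81, adjusted p = 0.0383). It also passed without the lung of D0 mouse 3 (0.90, adjusted p = 0.0466) or D2 mouse 14 (0.82, adjusted p = 0.0455), and without the liver of D0 mouse 1 (0.96, adjusted p = 0.021) or D3 mouse 19 (0.98, adjusted p = 0.0234). Between liver and forestomach it differed by −0.80 (interval −1.33 to −0.28, adjusted p = 0.331). For Xaf1, called in lung and liver, the difference of the D3 changes was 0.28 (95% interval −0.32 to 0.89, adjusted p = 0.783).

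The other genes of the interferon pathway were followed at D2 by role. Of all probes tested in liver, 0.574% were called at D2. In liver, none of 3 tested type I and III interferon genes was called, and none of 5 receptor genes (median change 0.05). Of 12 signalling and transcription factor genes 1 was called, Stat2, a subunit of the ISRE-binding complex, which fell from 1.43 to 0.58, by 0.85 (SE 0.13, adjusted p = 0.0024). Of 12 nucleic acid sensors and adaptors 1 was called, Dhx58, an RNA sensor of the RIG-I family, which fell by 0.69 (SE 0.16, adjusted p = 0.0465). None of 8 negative regulators was called.

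Of 48 other type I interferon targets tested in liver, 45 stood lower at D2, as did 53.1% of all probes. Of the 48, 3 were called, against 0.574% of all probes. Their median change was −0.26, against −0.01 over all probes. Samd9l, a restriction factor, fell by 0.89 (SE 0.19, adjusted p = 0.0208), Oas2, an RNA-activated synthetase, by 0.78 (SE 0.19, adjusted p = 0.0488), and Helz2, a helicase and nuclear receptor coactivator, by 0.70 (SE 0.12, adjusted p = 0.0078). Of 22 interferon gamma-inducible genes 21 stood lower, with a median of −0.27, and 1 was called, Nlrc5, the activator of MHC class I genes, which fell by 0.99 (SE 0.17, adjusted p = 0.0061). In lung and forestomach, and in liver at D1 and D3, none of these lists held a called gene. The median change of the 50 other type I targets tested in lung was −0.02 at D2 and 0.02 at D3. In the same lungs, 4 of the 5 B cell markers were called higher at D2 and 2 at D3, against 0.556% and 1.88% of all probes called. Among them, Cd79b, Ms4a1 and Cd79a rose at D2, by 1.1, 0.86 and 0.63 on the log2 scale, and Cd79b (0.80) also rose at D3. At each dose 1 of the 5 stood lower, by 0.07 at D2 and 0.19 at D3. The part of these markers in the lung values of the 9 genes was not tested.

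**Figure D3:**
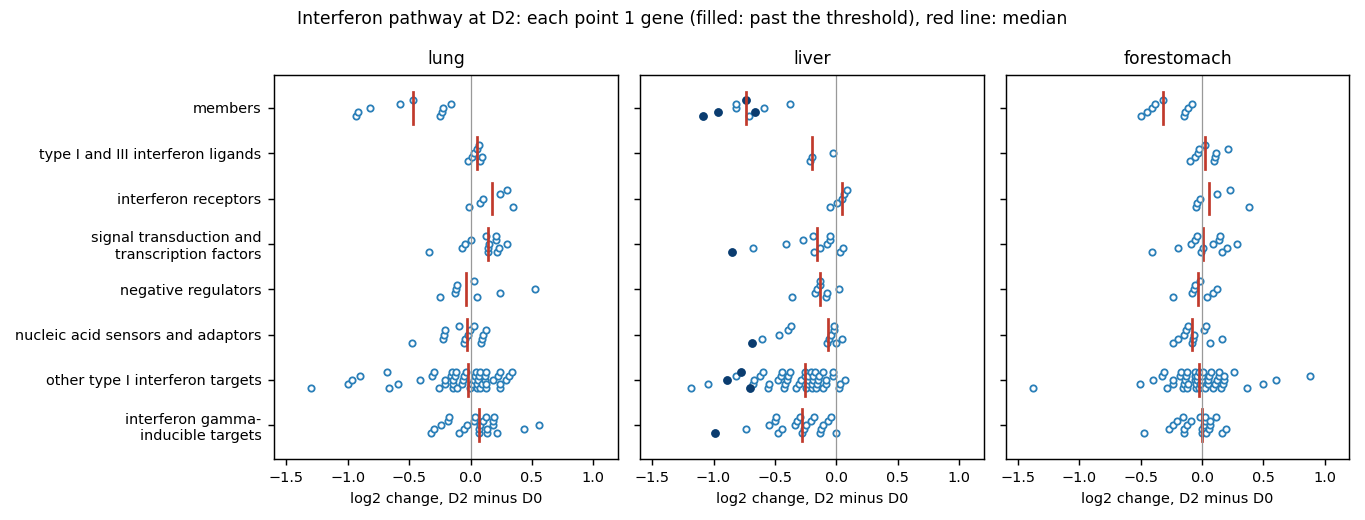
Change from D0 to D2 (log2 scale) of every tested gene of the interferon pathway, by role and tissue. Each point is 1 gene, filled points passed both thresholds, and red lines are medians; filled points appear in liver alone, and the medians of the 9 members are −0.47 in lung, −0.74 in liver and −0.31 in forestomach.

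Apart from dose, the members varied strongly between mice of the same group. In lung the within-dose SD was 0.81 for Rsad2, 0.71 for Isg15 and 0.62 for Irf7, larger than in 98.5% or more of all probes, whose median was 0.166. All 9 genes lay above 76.1% of probes in lung and above 63.9% in liver, where the largest SDs were 0.39 for Irf7 and for Oasl2. In forestomach 8 genes lay above 84.3% of probes, with an SD of 0.85 for Isg15 and 0.73 for Oasl2, and Ifi27 lay above 22.4% (SD 0.14).

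The genes moved up and down together. Over the arrays of a tissue, after removal of the dose group means, the median correlation of the 36 gene pairs was 0.76 in lung (0.36 to 0.97, 20 arrays), 0.61 in liver (0.34 to 0.87, 19 arrays) and 0.72 in forestomach (0.32 to 0.94, 19 arrays). These are descriptions of genes on shared arrays. Isg15 and Ifit1 in lung were the closest pair of that tissue at 0.97, and Irf7 and Usp18 in forestomach that of theirs at 0.94. Ifi27 was the loosest member in lung and forestomach, with median correlations of 0.48 and 0.40 to the other 8.

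Single mice carried this spread. Averaged over the 9 genes, the lung of D1 mouse 7 stood 0.89 above its group mean and that of D0 mouse 4 stood 0.68 above, while D1 mouse 8 (−0.54), D0 mouse 2 (−0.53), D3 mouse 20 (−0.49) and D0 mouse 1 (−0.49) were lowest. In liver D0 mouse 4 (0.42), D3 mouse 16 (0.37) and D2 mouse 14 (0.34) were highest and D0 mouse 1 (−0.46) lowest. In forestomach D1 mouse 10 stood 1.29 above its group and D2 mouse 15 stood 0.49 above, and D0 mouse 1 was again lowest at −0.58. All 9 genes were above the tissue mean over all doses in the lungs of D0 mice 3 and 4 and D1 mouse 7. The same held for the livers of D0 mice 3, 4 and 5 and the forestomachs of D0 mouse 4 and D1 mouse 10. No mouse was highest in all 3 tissues. For mouse 10 the lung was 0.07 and the liver 0.15 above the group mean, and for mouse 7 the liver was 0.13 and the forestomach 0.07 above.

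The slide moved with this in forestomach. All 6 forestomach arrays of slide 3 lay above their group means (0.03 to 1.29), against 1 of 6 on slide 1 (−0.58 to 0.09) and 1 of 7 on slide 2 (−0.45 to 0.33). The glandular gene Gkn1 was at 3.00 to 5.66 on slide 3, at 0.19 to 3.39 on slide 1 and at −0.003 to 5.59 on slide 2. Slide 3 had 38.4% to 42.1% of its spots well above background, slide 1 had 55.2% to 69.2% and slide 2 had 52.4% to 57.8%. In lung 5 of 7 arrays of slide 3 lay above, against 3 of 7 and 3 of 6 on the others, and the share of spots above background was 44.4% to 49.6% on slide 3 and 53.0% to 55.2% on the others. The part of the slide, of this share and of glandular tissue in these values was not tested beyond the removal of slide means given for the correlations between tissues.

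**Figure D4:**
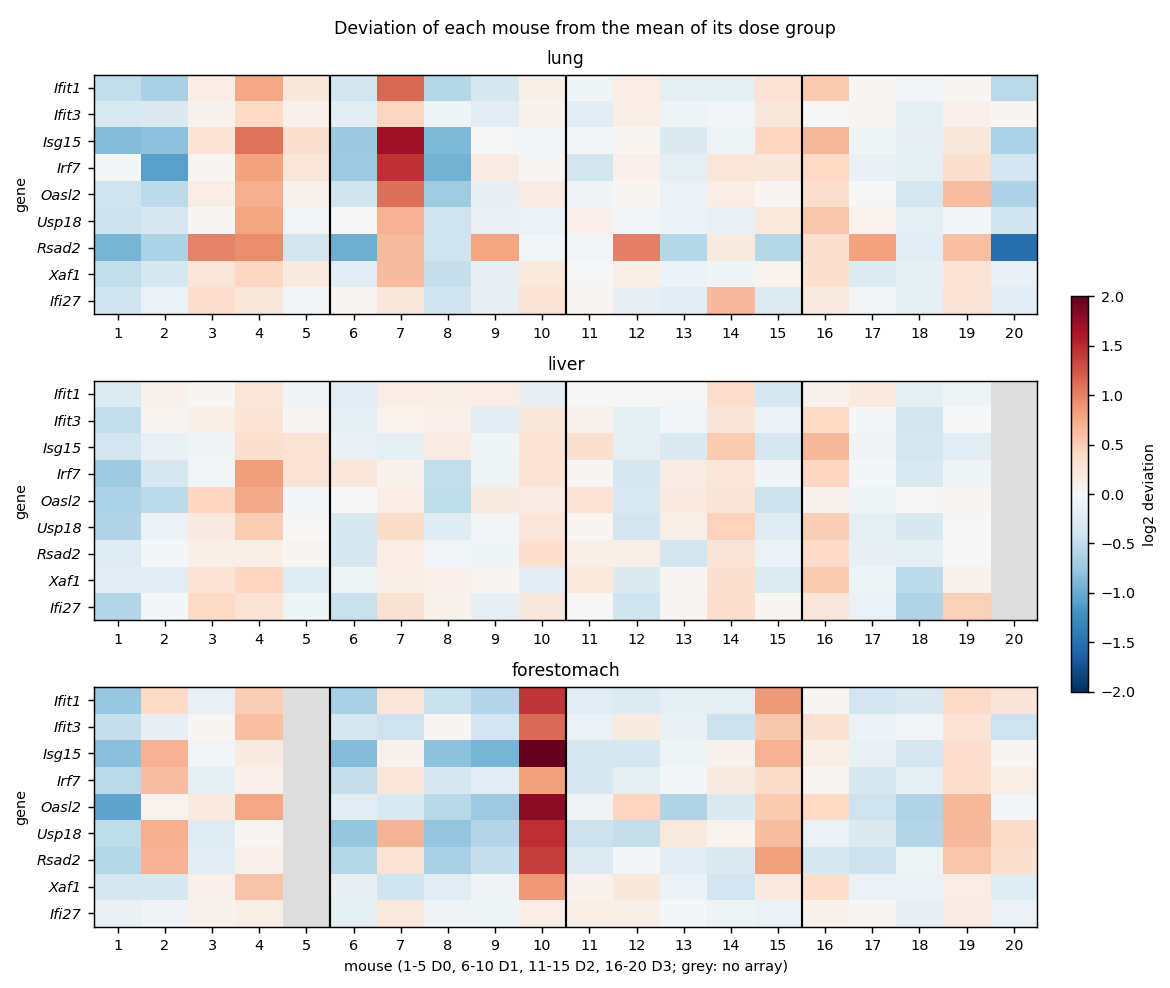
Deviation of each gene in each mouse from the mean of its dose group, on the log2 scale, for lung, liver and forestomach (rows are genes, columns are mice, grey is no array). Columns tend to be of 1 colour: mice 4 and 7 are high in lung, mouse 10 in forestomach, and mouse 1 is low in all 3 tissues.

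Whether a mouse that was high in one tissue was high in another was asked for each gene over the mice with both tissues, after removal of the dose group means. Of the 27 correlations (9 genes in 3 pairs of tissues), none passed the adjusted threshold, and of all probes tested in both tissues 0.0457% passed for lung and liver, 0.0211% for lung and forestomach and 0.0407% for liver and forestomach. Between lung and liver (19 mice) all 9 correlations were above 0, from 0.18 for Ifit1 to 0.69 for Ifi27, with a median of 0.45 against 0.097 over all probes. By the permutation test, 4 of the 9 had an unadjusted p of at most 0.05, as did 6.76% of all probes.

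Ifi27 had Pearson's r = 0.69 (permutation p = 0.0021, adjusted p = 0.211) and Spearman's rho = 0.70 (permutation p = 0.0029) between lung and liver. Without mice 14 and 3, the farthest from the median in lung, r was 0.64 (permutation p = 0.0193). The 2 mice left out for each gene were chosen by 1 tissue of a pair alone, liver for liver and forestomach and lung otherwise. D1 mouse 10, which stood apart in forestomach, was not left out for any gene. Oasl2 had r = 0.61 (permutation p = 0.0106, adjusted p = 0.392) and rho = 0.59 (permutation p = 0.0076), with r = 0.67 (permutation p = 0.0111) without mice 7 and 8. Usp18 had r = 0.65 (permutation p = 0.0081, adjusted p = 0.357) and rho = 0.50 (permutation p = 0.0513), and r = 0.45 (permutation p = 0.119) without mice 4 and 7, so that it rested on those mice. Rsad2 had r = 0.52 (permutation p = 0.0274, adjusted p = 0.506) and rho = 0.59 (permutation p = 0.011), and r = 0.49 (permutation p = 0.0509) without mice 12 and 3, where the p missed 0.05. Without the farthest 2 mice of each gene, the 9 correlations ran from −0.22 to 0.67, and 2 had an unadjusted permutation p of at most 0.05. With the slide means removed too, the 9 correlations ran from 0.36 to 0.75 with a median of 0.61. Of these, 7 had an unadjusted permutation p of at most 0.05, and none passed the adjusted threshold (0.246 or more). The share of all probes in that setting was not counted. Mice were permuted within dose groups but not within slides, so that these p-values are a description.

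Between lung and forestomach (19 mice) 8 of 9 correlations were above 0, from −0.06 for Rsad2 to 0.52 for Xaf1, with a median of 0.39 against 0.071 over all probes. None had an unadjusted p of at most 0.05, which 5.62% of all probes had. With the slide means removed the median was 0.34, and again none had such a p. Without the 2 mice of each gene farthest from the median in lung, 5 genes had such a p, and the share of all probes was not counted. Xaf1 then rose from r = 0.52 (permutation p = 0.0853, rho = 0.54 with permutation p = 0.0489) to r = 0.83 (permutation p = 7e-05) without mice 7 and 4. Between liver and forestomach (18 mice) 8 of 9 were above 0, from −0.13 for Ifit1 to 0.60 for Ifi27, with a median of 0.31 against 0.030 over all probes. Ifi27 alone had an unadjusted permutation p of at most 0.05 (r = 0.60, p = 0.0165, adjusted p = 0.575, rho = 0.57 with p = 0.0235), as did 4.54% of all probes. It fell to r = 0.40 (permutation p = 0.195) without mice 1 and 18, on which it rested. Without the 2 mice of each gene farthest from the median in liver, none of the 9 had such a p. With the slide means removed the median was 0.48, and 5 of the 9 had an unadjusted permutation p of at most 0.05, the smallest that of Isg15 (r = 0.48, p = 0.0002, adjusted p = 0.0804). Here too mice were not permuted within slides, so that these p-values are a description, and the share of all probes was not counted.

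As a description, the mean deviation of the 9 genes correlated at 0.65 between lung and liver (rho 0.66), with the same sign in 15 of 19 mice, and at 0.37 for both pairs with forestomach (rho 0.52 and 0.44), with the same sign in 13 of 19 and 13 of 18 mice. Mice 3, 4, 5, 7, 10, 14, 16 and 19 were above their group means in lung and liver, and mice 1, 2, 6, 8, 9, 13 and 18 were below in both.

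**Figure D5:**
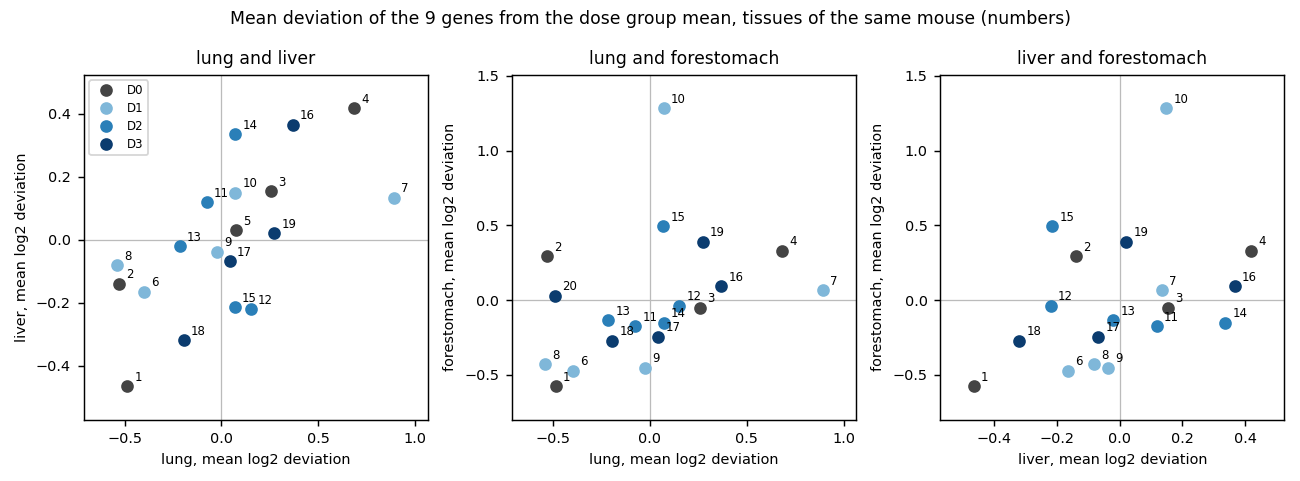
Mean deviation of the 9 genes from the dose group mean (log2 scale) in pairs of tissues of the same mouse, with mouse numbers and dose groups in colour. Lung and liver deviate in the same direction in 15 of 19 mice, and mouse 10 in forestomach and mouse 7 in lung stand apart in the other panels.

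The genes whose pattern over the arrays was most like the mean of the 9, after removal of dose group means, were listed for each tissue from 14502, 12010 and 15079 named genes outside the members. In lung they were Rtp4 (r = 0.95), Lgals3bp (0.94), Oas1a (0.94), Ifi44 (0.93) and Adar (0.93), over 20 arrays. In forestomach they were Zbp1 (0.97), Apol9b (0.96), Oas2 (0.93), Rtp4 (0.91) and Dhx58 (0.91), over 19 arrays. In liver Rtp4 (0.96) came first, followed by Clec4f (0.89) and Cd5l (0.88), which mark resident liver macrophages, and by Vsir (0.86) and Ifi211 (0.84). Rtp4 was thus on all 3 lists. None of these genes was called at any dose in the tissue it was listed for. At D2 in liver, Rtp4 changed by −0.68 (SE 0.23, adjusted p = 0.181) and Clec4f by −0.09 (SE 0.20, adjusted p = 0.888). Cd5l changed by −0.28 (SE 0.27, adjusted p = 0.728) there. At D3 Clec4f changed by −0.07 (SE 0.21, adjusted p = 0.92) and Cd5l by −0.63 (SE 0.29, adjusted p = 0.299).

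The mean of the 9 genes was also set beside the marker lists over the arrays, as a description. With the macrophage list it correlated at 0.60 in liver (rho 0.75), 0.30 in lung (rho 0.21) and −0.003 in forestomach (rho −0.04). With the list for all leukocytes the values were 0.66 in liver, 0.35 in lung and 0.63 in forestomach. With the NK cell markers they were 0.51 in liver (2 tested), 0.07 in lung (5 tested) and 0.67 in forestomach (2 tested). In forestomach it correlated at −0.60 with the list of squamous epithelial genes (Krt5, Krt13, Krt14, Lor and Sprr3). Whether more immune cells or more RNA of these genes per cell set the mice apart was not tested.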

How the data were processed

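RNA of 58 tissue samples was hybridised to 2-colour Agilent mouse arrays with 62976 spots and read with Feature Extraction 10.7.3.1, whose grid rests on mouse build mm9. The deposited scanner files hold the median intensity of each spot and of its local background per channel. They also hold, per the file headers, a log10 ratio of background-subtracted, dye-normalised signals. The authors' series table holds log2 ratios made by LOWESS normalisation of median signals without background subtraction, with column medians of −0.0445 to −0.0222, and served as an alternative. Here the same steps were redone from the scanner files with limma 3.58.1 (R 4.3.3): log2 of Cy5 over Cy3 median signal, loess within each array, outlier spots (0.495%) left out and spots of a probe averaged. Over probes, the result correlated with the authors' table at 0.995 to 0.998 on each array. Accessions on the array named 26413 probes.

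Tests covered the probes whose Cy5 signal stood well above background on 4 or more arrays of the tissue. Where the authors used MAANOVA, limma was fitted per tissue to the 4 dose groups (two-sided, Benjamini-Hochberg adjustment over all probes tested), with their thresholds of an adjusted p of at most 0.05 and at least 1.5-fold, and to 12 groups for differences between tissues. Correlations over mice used 100000 permutations of mice within dose groups (Python 3.11.15, numpy 2.4.6, numba 0.67.0), two-sided, adjusted in the same way. On simulated data for D2 against D0, 97% of log2 changes of 1 were recovered in liver, 88% in lung and 82% in forestomach. The changed probes were drawn at random from all probes tested. Most members varied more between mice than the median probe, so these shares do not give the recovery for the members. In the Cy3 channel, which held the same reference RNA on every array, none of the 27 tests of the members in each tissue was called.

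The members and the gene lists were chosen with earlier results of these data known. All 9 members are named with their values. Of the pathway lists, up to 5 called genes with the largest change per contrast are named, and of the genes most like the members the 5 with the highest correlation per tissue. Mouse numbers pair the tissues because equal numbers are 1 animal. Over all probes, the deviations of the same mouse correlated above 0.1 in 12 of 19 mice for lung and liver, 9 of 19 for lung and forestomach and 2 of 18 for liver and forestomach. The number of arrays per group limits the precision. The p-values from limma set a difference against the spread between arrays, 1 per mouse and tissue. That spread also holds differences between slides and between tissue pieces. Promoters were read from a RefSeq table of build GRCm38.p6, and no coordinate of the arrays is given. Some genes of the pathway and marker lists are not reported here by name.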

Additional observations from a re-analysis of the deposited data

Results flagged for a closer look

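In 5 of 108 groups of 4 or 5 arrays (9 genes in 12 groups), 1 mouse stood apart from the others by Dixon's test at the 95% level, which chance alone gives in about 1 in 20 groups. In forestomach, D1 mouse 10 was at 0.92 for Oasl2 (next mouse −1.09) and at −0.76 for Xaf1 (next −1.70), and D2 mouse 15 was at −1.07 for Ifit1 (next −2.09) and at −1.04 for Rsad2 (next −1.90). In liver, D1 mouse 8 was at −1.88 for Oasl2 (next −1.36). Both forestomach mice were on slide 3, and the cause was not tested.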

How the results depend on the processing

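Over all settings tried, 764 counts of called members stayed within 1.5 times and 75 moved, while 3156 single-gene values kept direction and side of the threshold, 88 lost a call, 28 gained one and 20 turned sign. Counts of called members moved as follows, and where no cause is given it was not tested. In liver at D3 (2 called) 1 was called with normexp background, median centring, processed signals, Cy5 alone or no filter, and 0 with only the 2 groups fitted. In lung at D3 (1 called) 0 were with median centring, processed signals, Cy5 alone, no filter, the 2 groups alone or the mean of all probes, and 0 without the lungs of mice 5 and 16, a setting chosen after seeing the data. The lung slope (1) gave 0 with median centring, no filter or the mean of probes and 2 with the slide in the model; the liver slope (1) gave 0 with median centring, Cy5 alone or no filter and 2 with the slide. In liver at D2 (4) 8 were called with median centring and 1 with Cy5 alone. The D3 difference between lung and liver (0) gave 1 with the authors' log2 ratios and with the slide as a random block, and liver minus forestomach at D0 (8) gave 5 with median centring.

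Leaving out 1 array gave 0 to 1 called in lung at D2, 0 to 2 in lung at D3 and for the lung slope, 2 to 6 in liver at D2, 0 to 4 in liver at D3, 0 to 3 for the liver slope, 0 to 1 for the D3 difference of lung and liver, and 5 to 6, 8 to 9 and 7 to 8 for the D0 differences.

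With median centring, lung changes at D2 turned to 0.43 for Ifit3, 0.14 for Oasl2, 0.37 for Usp18, 0.26 for Rsad2, 0.039 for Xaf1 and 0.41 for Ifi27, those at D3 to 0.28 for Usp18, 0.25 for Rsad2 and 0.15 for Ifi27, and Ifi27 between lung and forestomach to −0.39. Ifit3 in lung at D3 turned to −0.043 with processed signals, and ran from −0.046 to 0.13 with 1 array left out (−0.046 and −0.040 without D0 mice 1 and 2). Rsad2 there ran from −0.24 to 0.37 (0.25 and 0.23 without D0 mice 3 and 4, 0.37 and 0.055 without D3 mice 20 and 18). Usp18 ran from −0.16 to 0.18 (0.18 without D0 mouse 4, 0.079 and 0.024 without D3 mice 20 and 18).

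With the mouse as a replicate block (consensus correlation 0.0352), the counts were the same: 0 for each D3 difference and 6, 9 and 8 for the D0 levels. Rsad2 in forestomach was well above background on 11 of 19 arrays, so its values there lie near the limit of detection.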
